A study of Mus musculus with 23 samples.

Results

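The genes of the DNA replication machinery were followed in RNA-seq of mouse T-cell acute lymphoblastic leukemia (T-ALL). The module holds 42 genes, chosen by name as the core factors that license origins, unwind DNA, copy it and process the new strands, and all 42 were found among the 24475 genes of the table. The 23 samples were 6 thymus controls from normal C57BL/6 mice, 14 spleens with T-ALL from a wild-type donor thymus (WT T-ALL) and 3 spleens with T-ALL from a Notch3 knockout donor thymus (Notch3 KO T-ALL). Both T-ALL groups came from Rag2-/-Il2rg-/- mice of strain BALB/c that carried a newborn donor thymus lobe under the kidney capsule, and every T-ALL arose in a mouse of its own. Donors of the wild-type thymus were B6.Ly5.1 mice, as the study's methods state. The Notch3 knockout allele has a beta-galactosidase gene placed in frame in the first coding exon of Notch3. The age of the controls is not given in the sources used here. Tissue and host strain part with the comparison of T-ALL with thymus and cannot be told apart from it. The spleens were not sorted, and the hosts lack lymphocytes of their own but keep erythroid and myeloid cells. For exome sequencing, the study reports that leukemic cells made up most of such unfractionated spleen cells on average. It also describes T-ALL cells as highly proliferative by Ki67 staining. The leukemic share of the single RNA-seq samples is not given.

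Replication starts at origins that the origin recognition complex marks. In G1, Cdc6 and Cdt1 load the Mcm2-7 helicase there, and in S phase the helicase is switched on by Cdc45, the GINS complex and Mcm10. Primase and the polymerases then copy both strands, the sliding clamp Pcna holds the polymerases on DNA, and further factors protect single strands, join the lagging-strand pieces, rebuild chromatin and supply deoxynucleotides. Transcripts of many of these genes rise as cells enter S phase under the control of E2F factors, and in the normal thymus the dividing cells are mainly immature thymocytes.

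Values are log2(scaled RPKM + 1), where RPKM is a read count scaled by transcript length and library size, and the scaling brings the 75th percentile of every sample to between 9.99 and 10. They are per length, so levels can be compared between genes, and the offset of 1 understates the change of genes at low levels. The table gives no counts, so how deeply single libraries were sequenced is unknown. Differences are of mean log2 values with their standard error (SE), tested with limma, and a gene was called at a Benjamini-Hochberg adjusted p under 0.05 over all genes tested. Samples are named by the number in their label. Notch3 itself ranged on the log2 scale from 2.62 to 4.29 in thymus and from 3.17 to 5.78 in WT T-ALL, and it was 2.59, 3.22 and 3.74 in Notch3 KO T-ALL. The difference between the T-ALL groups, Notch3 KO minus WT, was -1.56 on the log2 scale and was not called (adjusted p = 0.101). T cell markers were high in all groups, with a mean log2 level of 7.86 to 8.17 in thymus. In WT T-ALL this level was 6.70 to 8.07, and in Notch3 KO T-ALL 7.02 to 7.50. Of the 7 markers, 3 were called lower than in thymus in each T-ALL group, down to -1.53 and -1.45, and none higher. The medians of Cd247, Lck and Cd28 were 8.06, 9.52 and 6.48 in thymus and 6.50, 8.67 and 5.41 in WT T-ALL. Among the controls, replicates 1 and 3, 2 and 4, and 5 and 6 lay closer to each other than to the rest. The median absolute log2 difference was 0.12, 0.11 and 0.17 within these pairs. Whether a pair shares a mouse or a library is not known, so the 6 controls may not be 6 independent samples. Once the data had been seen, 3 genes unrelated to replication (Sco2, Nr2c2ap and 1110002L01Rik) were also found to part the libraries into 2 sets that no label names, with a mean log2 level of 2.99 to 3.79 in set A and 0.91 to 1.54 in set B. Set A held thymus controls 5 and 6, WT T-ALL 3, 4, 5 and 7 and all 3 Notch3 KO T-ALL, and set B held the other samples. Results are given below within these sets as well.

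As the members carry out a single process, their promoters were searched for shared short motifs. RefSeq promoters on GRCm38.p6, from 250 bases before to 50 after the start, were listed for 34 of the 42 members. The E2F-type motifs searched were TTTCCCGC, TTTCGCGC, TTTGGCGC and TTTGCCGC, on both strands. At least 1 of these 8-letter motifs was found in 14 of the 34 members (41.2%) and in 2.6% of all 27025 genes with a promoter. The 250 bases before the start are shown for 5 members, with bases of 8-letter matches in capitals. Orc1 has 1 match, Mcm5 has 2 that overlap, and Mcm6 has 3, of which 2 overlap. The Orc1 window lies inside the span of its gene (108575705 to 108616030), so it precedes an internal start rather than the outermost one. Mcm10 and Rpa3 had the largest and the smallest difference between WT T-ALL and thymus among the 42 members, that of Rpa3 not called, and neither window holds a match. They are read 5′ to 3′ on the strand of the gene, for Orc1 chr4:108579204-108579453 (plus strand), Mcm5 chr8:75109259-75109508 (plus), Mcm6 chr1:128359706-128359955 (minus), Mcm10 chr2:5012792-5013041 (minus) and Rpa3 chr6:8259142-8259391 (minus).
Orc1: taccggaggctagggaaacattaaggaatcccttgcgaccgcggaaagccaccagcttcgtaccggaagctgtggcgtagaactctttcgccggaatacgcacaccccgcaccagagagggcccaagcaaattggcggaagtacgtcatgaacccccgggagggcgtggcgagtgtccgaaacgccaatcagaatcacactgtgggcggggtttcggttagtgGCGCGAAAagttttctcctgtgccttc
Mcm5: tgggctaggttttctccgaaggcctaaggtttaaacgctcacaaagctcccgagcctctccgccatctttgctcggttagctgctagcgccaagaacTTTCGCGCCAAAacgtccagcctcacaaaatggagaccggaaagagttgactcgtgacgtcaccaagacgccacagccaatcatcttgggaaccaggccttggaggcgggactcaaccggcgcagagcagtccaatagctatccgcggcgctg
Mcm6: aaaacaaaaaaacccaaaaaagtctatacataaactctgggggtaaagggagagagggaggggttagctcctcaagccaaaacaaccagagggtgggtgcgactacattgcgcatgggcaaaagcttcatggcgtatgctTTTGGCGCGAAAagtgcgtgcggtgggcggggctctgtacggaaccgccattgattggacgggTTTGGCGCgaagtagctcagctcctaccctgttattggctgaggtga
Mcm10: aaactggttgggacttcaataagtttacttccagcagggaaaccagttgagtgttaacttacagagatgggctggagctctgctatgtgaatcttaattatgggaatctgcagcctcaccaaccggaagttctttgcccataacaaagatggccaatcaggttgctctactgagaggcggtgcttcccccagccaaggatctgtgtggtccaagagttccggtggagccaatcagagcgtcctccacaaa
Rpa3: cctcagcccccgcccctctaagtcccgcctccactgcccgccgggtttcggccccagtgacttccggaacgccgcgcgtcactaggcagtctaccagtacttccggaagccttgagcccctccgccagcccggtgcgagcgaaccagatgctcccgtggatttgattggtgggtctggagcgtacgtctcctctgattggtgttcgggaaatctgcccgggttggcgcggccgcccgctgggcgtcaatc

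In Orc1 the match began 27 bases before the start, in Mcm5 the pair began 153 and 149 bases before it, and in Mcm6 the matches began 110, 106 and 47 bases before it. With the first base left off (the 7-letter core), 24 of the 34 members held a match (70.6%), against 10.9% of all genes, and Rpa3 then had 1. The CCAAT box, a motif of many promoters, was found in 67.6% of members and 41.1% of all genes. The CHR motif of mitotic genes (TTTGAA and TTCGAA) was in 20.6% of members and 21.7% of all genes. Of the 57 further pathway genes described below, 46 had a promoter. The 8-letter E2F-type motif was in 26.1% of these 46, the 7-letter core in 41.3%, CCAAT in 41.3% and CHR in 21.7%, so these motifs are not particular to the members. The 19 mitotic genes listed beside the members, of which 15 had a promoter, showed another makeup. Of those 15, 6.67% held the 8-letter E2F-type motif, 86.7% CCAAT and 73.3% CHR. A match is only a description of letters in this window. Members with the 8-letter motif differed from thymus by a median of 1.06 in WT T-ALL (14 genes, 0.66 to 1.31). The median was 0.89 for those without it (20 genes, 0.26 to 1.44). For the 8 members with no promoter listed it was 1.08 (0.61 to 1.37). These ranges overlap, and no test was made.

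Nearly the whole machinery was higher in WT T-ALL than in thymus. Of the 42 members, 40 rose and none fell, where 29.3% of all 11919 genes tested rose and 22.3% fell, so that 51.6% were called. The members' differences ran from 0.26 to 1.44 with a median of 0.99 on the log2 scale, beside a median of 0.08 over all genes tested. As ratios of mean scaled RPKM this was 1.20 to 2.91, with a median of 2.10, and 26 members were at least 2-fold higher. In 19 members the lowest WT T-ALL sample lay above the highest control, which held for 8.42% of all genes. After quantile normalization 38 members rose, and over all genes 2848 rose and 3024 fell, against 3493 and 2657 in the values as deposited. A correction for GC content and length gave 37 members, with 2901 genes higher and 3269 lower. Only Rpa1 and Rpa3, which code for the large and the small subunit of the single-strand binding protein RPA, were not called, although both of their differences were above 0.

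The mean over the 42 members gave the same order in single samples. In the controls it was 4.85 ± 0.25 (SD, n = 6) on the log2 scale, with a lowest value of 4.40 in control 6 and a highest of 5.06. In WT T-ALL it was 5.80 ± 0.26 (SD, n = 14), from 5.38 in WT T-ALL 110 to 6.31 in WT T-ALL 14, and in Notch3 KO T-ALL it was 5.95 ± 0.20 (SD, n = 3), with values of 5.81, 5.86 and 6.18. Every one of the 14 WT T-ALL means lay above the highest control, while the Notch3 KO means lay inside the range of WT T-ALL. Within set A the controls were at 4.40 and 4.74, WT T-ALL at 5.54 to 6.14 and Notch3 KO T-ALL at 5.81 to 6.18. Within set B the controls were at 4.91 to 5.06 and WT T-ALL at 5.38 to 6.31, so T-ALL did not overlap with thymus within either set.

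**Figure D1:**
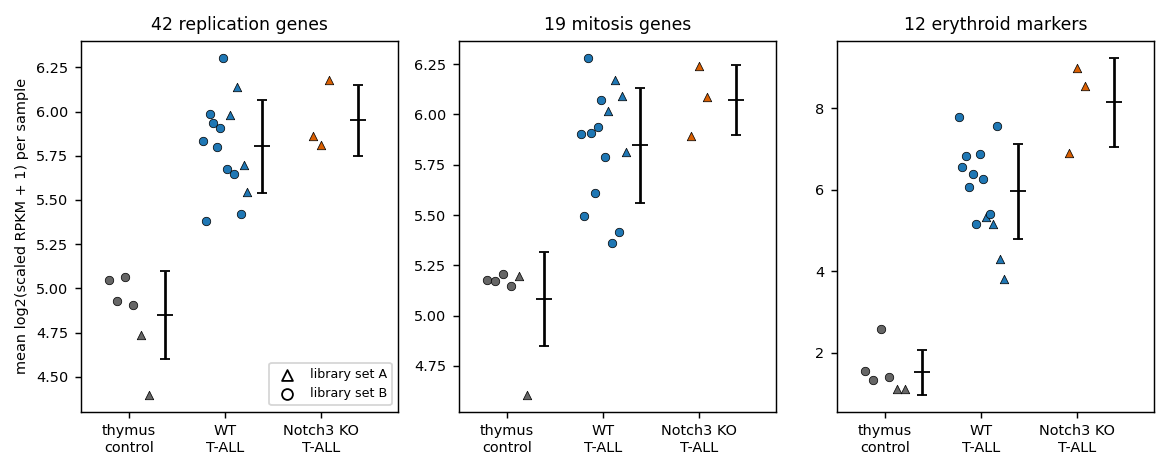
Mean log2(scaled RPKM + 1) per sample over the 42 replication genes and over further gene lists, by group; each point is a sample, triangles are library set A and circles library set B, and bars give the group mean and SD. The member means of T-ALL (5.38 to 6.31) lie above those of thymus (4.40 to 5.06), and the erythroid level also parts T-ALL (3.81 or more) from thymus (2.59 or less).

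Red cell precursors of the spleen also divide, and their markers moved with the groups. The mean log2 level of the 12 erythroid genes in the table (of 13 listed) was 1.12 to 2.59 in thymus. It was 3.81 to 7.78 in WT T-ALL, where 11 of the 12 rose, and 6.90 to 8.99 in Notch3 KO T-ALL, where all 12 rose. Their level does not overlap between thymus and T-ALL. With the erythroid level as a covariate, 10 of the 42 members were still called in WT T-ALL (10.1% of all genes) and none in Notch3 KO T-ALL (2.13% of all genes, 15 members at an unadjusted p under 0.05). The median difference of the members was then 0.85 in WT T-ALL and 0.97 in Notch3 KO T-ALL, with 40 and 38 members above 0. Among the 14 WT T-ALL, the mean of the members and the erythroid level had r = 0.04 (Spearman 0.03, and r = -0.26 without the 2 samples farthest from the median), as a description over libraries that share a normalization. Neutrophil markers ranged from 2.04 to 3.94 in thymus, while WT T-ALL had 4.68 to 11.42 and Notch3 KO T-ALL 3.19 to 8.02, and their r with the mean of the members in WT T-ALL was -0.18 (0.26 without the 2 farthest samples). In the same order of groups, macrophage markers ranged from 0.89 to 2.70, 1.95 to 5.53 and 4.95 to 5.57, and megakaryocyte markers from 0.18 to 0.26, 0.78 to 4.28 and 3.17 to 4.27. Endothelial and stromal markers ranged from 1.25 to 1.47, 1.49 to 2.56 and 2.29 to 2.41, and 2 of the 3 tested rose in both T-ALL groups. The third, the endothelial marker Pecam1, went the other way. It fell in WT T-ALL (-0.36) and was not called in Notch3 KO T-ALL (-0.47). The largest difference in this list was that of Pdgfrb, 3.84 in WT T-ALL and 2.95 in Notch3 KO T-ALL. Markers of double-positive thymocytes, the main cell of thymus, were at 7.91 to 8.26 in thymus and 3.53 to 6.28 in WT T-ALL. B cell markers were at 1.37 to 2.02 in thymus and at most 0.61 in T-ALL, and the mean of the thymic epithelium genes was at most 1.04 in any sample, with their defining genes Foxn1 and Psmb11 at most 0.06 and 0.27. The part of these cells in the rise of the members was not tested. In unsorted tissue, fewer cells of a type and less RNA per cell cannot be told apart.

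Origin licensing factors rose throughout, with 10 of 10 members called in WT T-ALL and a median difference of 1.05. Cdc6, the ATPase that loads the Mcm2-7 helicase (gene 23834, GRCm38.p6 chromosome 11, 98907709 to 98923942), changed most among them. Its log2 value was 2.97 to 3.95 in thymus (median 3.56) and 3.75 to 6.25 in WT T-ALL (median 4.66), and it was 5.18, 5.23 and 5.45 in Notch3 KO T-ALL. The Notch3 KO samples lay above all controls, while the lowest WT T-ALL reached into the control range. The difference from thymus was 1.31 in WT T-ALL (SE 0.23, adjusted p = 7.17e-05) and 1.79 in Notch3 KO T-ALL (SE 0.34, adjusted p = 0.000268). With an SD of 0.59 on the log2 scale, Cdc6 also varied most of all members among the 14 WT T-ALL. Orc6, the smallest subunit of the origin recognition complex, changed least of this group. It had a log2 value of 4.83 to 5.60 in thymus (median 5.31), 5.24 to 6.83 in WT T-ALL (median 6.04) and 5.88, 5.88 and 6.34 in Notch3 KO T-ALL. The WT T-ALL range overlapped that of thymus, and the differences were 0.81 (SE 0.19, adjusted p = 0.00119) and 0.76 (SE 0.27, adjusted p = 0.0327). The latter call was lost without Notch3 KO T-ALL 1 or 3 or thymus control 2, 4 or 6, with an adjusted p of up to 0.172, and also within set A (adjusted p = 0.109), with averaged controls (adjusted p = 0.0587 and 0.0913) and after the GC and length correction (0.39, adjusted p = 0.161). Within set A the call of Orc6 in WT T-ALL was lost as well (1.00, adjusted p = 0.0517).

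Orc1, the subunit of the origin recognition complex that comes and goes with the cell cycle (gene 18392, chromosome 4, 108575705 to 108616030), was the member with the lowest level in thymus and WT T-ALL (in Notch3 KO T-ALL that was Gins3). Its mean scaled RPKM was 4.27 in thymus and 11.7 in WT T-ALL. On the log2 scale it was 2.05 to 2.57 in thymus (median 2.42), 2.94 to 4.37 in WT T-ALL (median 3.50) and 3.80, 4.16 and 4.04 in Notch3 KO T-ALL. No T-ALL sample reached down to the controls, and Orc1 rose by 1.21 in WT T-ALL (SE 0.18, adjusted p = 1.08e-05) and by 1.61 in Notch3 KO T-ALL (SE 0.26, adjusted p = 7.06e-05). Among the subunits outside the module, Orc2 and Orc5 rose by 0.66 and 0.70 in WT T-ALL, and Orc3 and Orc4 were not called. Cdt1, the partner of Cdc6 in helicase loading, rose by 1.00 and 1.34.

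The 6 subunits of the Mcm2-7 helicase rose together. Their differences in WT T-ALL were 0.90 for Mcm2, 0.91 for Mcm4, 1.02 for Mcm7, 1.07 for Mcm3, 1.12 for Mcm5 and 1.16 for Mcm6, and in Notch3 KO T-ALL they ran from 0.99 for Mcm7 to 1.51 for Mcm5. In mean scaled RPKM the subunits spanned 51.8 (Mcm4) to 95.9 (Mcm7) in thymus, 98.8 (Mcm4) to 200 (Mcm7) in WT T-ALL and 106 (Mcm4) to 199 (Mcm6) in Notch3 KO T-ALL, so that the highest subunit was 1.85, 2.02 and 1.87 times the lowest. The subunits of this complex thus lay within a narrow band of levels in each group, and Mcm4 was lowest in all 3. Mcm6, whose promoter holds 3 matches, had log2 values of 5.50 to 6.84 in thymus (median 6.71), 7.02 to 8.25 in WT T-ALL (median 7.62) and 7.59, 7.38 and 7.91 in Notch3 KO T-ALL, with no overlap between thymus and T-ALL. Mcm2 was 5.22 to 6.13 in thymus (median 6.00), 6.15 to 7.39 in WT T-ALL (median 6.80) and 6.95, 6.74 and 7.10 in Notch3 KO T-ALL. WT T-ALL lay close to thymus but did not overlap with it (adjusted p = 0.000185 in WT T-ALL).

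All 6 genes of helicase activation rose, with a median difference of 1.11 in WT T-ALL. Mcm10, which helps to switch on the loaded helicase (gene 70024, chromosome 2, 4990724 to 5012791), rose most of all 42 members in WT T-ALL. It was at 2.97 to 3.77 in thymus (median 3.75), at 4.16 to 5.63 in WT T-ALL (median 5.07) and at 5.17, 5.10 and 5.36 in Notch3 KO T-ALL on the log2 scale. No T-ALL sample overlapped the controls, and the Notch3 KO values lay inside the WT T-ALL range. The difference was 1.44 in WT T-ALL (SE 0.18, adjusted p = 6.86e-07), a 2.91-fold ratio of mean scaled RPKM, and 1.66 in Notch3 KO T-ALL (SE 0.25, adjusted p = 3.3e-05). Cdc45, a subunit of the active helicase, rose by 1.23 and 1.33. The GINS complex, its other partner, had differences in WT T-ALL of 1.37 for Gins2, 1.00 for Gins1, 0.66 for Gins3 and 0.61 for Gins4. Gins4 had log2 values of 4.37 to 4.95 in thymus (median 4.66), 4.91 to 5.86 in WT T-ALL (median 5.27) and 5.37, 5.13 and 5.35 in Notch3 KO T-ALL. Its samples were the most alike among WT T-ALL of all members, with an SD of 0.22, and it rose by 0.61 (adjusted p = 0.00016). After the GC and length correction its difference was 0.18 in WT T-ALL (adjusted p = 0.143) and 0.09 in Notch3 KO T-ALL (adjusted p = 0.645), and within set A it was 0.57 (adjusted p = 0.0865) and 0.62 (adjusted p = 0.0605), none of which was called. Gins3 had the lowest mean scaled RPKM of the 4 GINS genes in every group, 7.58 in thymus, 12.9 in WT T-ALL and 11.7 in Notch3 KO T-ALL.

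**Figure D2:**
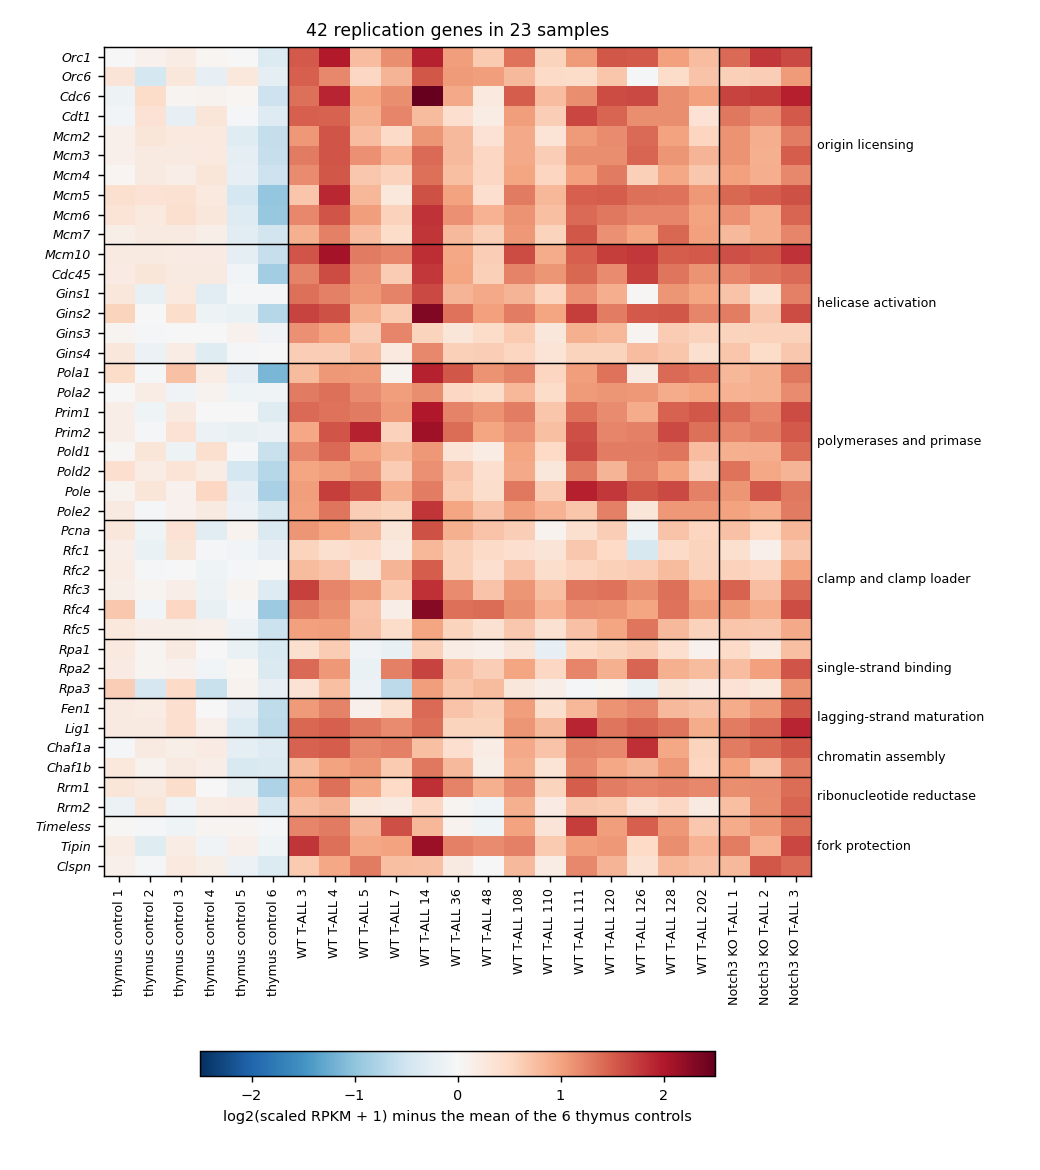
Heat map of the 42 replication genes (rows, by role) in the 23 samples (columns, by group), coloured by the log2 value minus the mean of the gene in the 6 thymus controls. Colours above 0 fill most of the T-ALL columns, Rpa3, Rpa1 and Rfc1 have the smallest mean differences between WT T-ALL and thymus (0.26 to 0.44), and thymus control 6 is the lowest of the controls.

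Polymerase and primase genes rose in 8 of 8 cases, with a median difference of 1.02 in WT T-ALL. Prim2, the large subunit of the primase that starts each new strand, had log2 values of 4.01 to 4.56 in thymus (median 4.09), 4.76 to 6.31 in WT T-ALL (median 5.51) and 5.42, 5.49 and 5.73 in Notch3 KO T-ALL. Every T-ALL sample lay above every control. The differences were 1.32 (SE 0.18, adjusted p = 2.27e-06) and 1.35 (SE 0.26, adjusted p = 0.000285). Prim1, the catalytic subunit of primase, rose by 1.29 and 1.42 and had the lowest adjusted p of the members in WT T-ALL (1.18e-07). Pole, the catalytic subunit of leading-strand polymerase epsilon, rose by 1.26 and 1.33. At the lower end, Pold2, an accessory subunit of lagging-strand polymerase delta, was at 3.51 to 4.64 in thymus (median 4.40), 4.50 to 5.51 in WT T-ALL (median 5.18) and 5.57, 5.18 and 5.05 in Notch3 KO T-ALL. It overlapped between thymus and WT T-ALL, and its difference there was 0.88 (SE 0.17, adjusted p = 0.000158). Pola1, the catalytic subunit of polymerase alpha, was the most variable of this group in thymus (2.78 to 4.65) and was called with differences of 1.06 and 1.02 (adjusted p = 0.000998 and 0.0264). Without Notch3 KO T-ALL 3 or thymus control 6 the latter call was lost, with an adjusted p of up to 0.13. The remaining subunits rose by similar amounts in WT T-ALL, Pold1 by 0.99, Pola2 by 0.96 and Pole2 by 0.96.

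The sliding clamp and its loader rose less, by a median of 0.72 in WT T-ALL, although 6 of 6 were called. Pcna, the clamp (gene 18538, chromosome 2, 132249286 to 132253180), had the highest level of all members in each group, with mean scaled RPKM of 365 in thymus, 592 in WT T-ALL and 581 in Notch3 KO T-ALL. Its log2 values were 8.14 to 8.85 in thymus (median 8.48), 8.36 to 10.09 in WT T-ALL (median 9.16) and 9.23, 8.99 and 9.31 in Notch3 KO T-ALL. WT T-ALL overlapped thymus, and the differences were 0.66 (SE 0.19, adjusted p = 0.0055) and 0.69 (SE 0.27, adjusted p = 0.0493), the latter close to the threshold and lost in 16 of the 23 fits that left out 1 library. Neither call of Pcna held after quantile normalization (0.19 and 0.10, adjusted p = 0.249 and 0.714) or after the GC and length correction (0.30 and 0.34, adjusted p = 0.0988 and 0.227). The call in WT T-ALL was also lost within set A (adjusted p = 0.0584) and within set B (adjusted p = 0.0862). Rfc3, a small subunit of the clamp loader, rose most of its complex, by 1.17 (SE 0.15, adjusted p = 2.03e-06) in WT T-ALL, where it ranged from 5.09 to 6.25 against 4.12 to 4.59 in thymus. The other small subunits, Rfc4, Rfc5 and Rfc2, rose by 1.15, 0.76 and 0.68. Rfc1, the large subunit, was at 4.70 to 5.20 in thymus (median 4.85), at 4.50 to 5.74 in WT T-ALL (median 5.38) and at 5.30, 5.03 and 5.58 in Notch3 KO T-ALL. The lowest WT T-ALL lay below every control, and Rfc1 rose by 0.44 in WT T-ALL (SE 0.13, adjusted p = 0.0087) and was not called in Notch3 KO T-ALL (0.40, SE 0.19, adjusted p = 0.106). The call in WT T-ALL was lost within set A (0.56, adjusted p = 0.0971), within set B (0.38, adjusted p = 0.0977) and with the controls averaged in 3 pairs (adjusted p = 0.0719).

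The RPA complex, which coats single strands at the fork and also serves repair, had the fewest calls for its size. Only Rpa2 of its 3 subunits was called, at 4.71 to 5.29 in thymus (median 5.13), 4.90 to 6.76 in WT T-ALL (median 6.01) and 5.84, 6.10 and 6.64 in Notch3 KO T-ALL. The lowest WT T-ALL fell inside the control range, and Rpa2 rose by 0.96 in WT T-ALL (SE 0.19, adjusted p = 0.000298) and by 1.12 in Notch3 KO T-ALL (SE 0.28, adjusted p = 0.00338). Within set A neither call held, with differences of 1.06 (adjusted p = 0.114) and 1.28 (adjusted p = 0.0604). Rpa3 (gene 68240, chromosome 6, 8255936 to 8259141) was at 5.73 to 6.90 in thymus (median 6.24), 5.63 to 7.35 in WT T-ALL (median 6.53) and 6.65, 6.56 and 7.42 in Notch3 KO T-ALL. All 3 groups overlapped. Its differences were 0.26 (SE 0.22, adjusted p = 0.317) and 0.58 (SE 0.31, adjusted p = 0.15). Rpa3 had the shortest transcript of the members (682 bases, 34.2% GC), and its difference in WT T-ALL was -0.27 after a correction for GC content and length. Rpa1 was at 5.74 to 6.37 in thymus (median 6.17), 5.92 to 6.76 in WT T-ALL (median 6.49) and 6.59, 6.37 and 6.88 in Notch3 KO T-ALL. Its WT T-ALL values overlapped thymus, and it differed by 0.29 (SE 0.14, adjusted p = 0.0951) and 0.49 (SE 0.21, adjusted p = 0.0644). In mean scaled RPKM, Rpa2 was the lowest subunit and Rpa3 the highest in all groups, at 32.9 and 81.2 in thymus and at 67.5 and 97.5 in WT T-ALL, so that their ratio was 2.47 in thymus and 1.45 in WT T-ALL.

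Lagging-strand maturation was represented by the flap nuclease Fen1 and the ligase Lig1, and both rose. Lig1 was at 4.60 to 5.67 in thymus (median 5.43), 5.81 to 7.16 in WT T-ALL (median 6.58) and 6.56, 6.68 and 7.15 in Notch3 KO T-ALL. No T-ALL sample overlapped the controls, and the differences were 1.20 (SE 0.18, adjusted p = 1.15e-05) and 1.54 (SE 0.26, adjusted p = 0.000104). Fen1 rose by 0.84 and 1.19. Chaf1a and Chaf1b, subunits of the assembly factor that places histones on new DNA, rose as well. Chaf1a was at 3.88 to 4.42 in thymus (median 4.26), at 4.38 to 6.03 in WT T-ALL (median 5.28) and at 5.51, 5.60 and 5.76 in Notch3 KO T-ALL, with differences of 1.02 (SE 0.18, adjusted p = 9.12e-05) and 1.42 (SE 0.27, adjusted p = 0.000275). The lowest WT T-ALL lay just below the highest control. Chaf1b rose by 0.84 and 1.00.

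Ribonucleotide reductase makes deoxynucleotides, and both of its listed subunits rose in WT T-ALL. Rrm1, the large subunit, was at 5.62 to 6.82 in thymus (median 6.49), 6.87 to 8.20 in WT T-ALL (median 7.60) and 7.55, 7.58 and 7.79 in Notch3 KO T-ALL. Both T-ALL groups lay above thymus without overlap and overlapped each other, with differences from thymus of 1.14 (SE 0.17, adjusted p = 1.21e-05) and 1.26 (SE 0.25, adjusted p = 0.000513). Rrm2, the small subunit that is made in S phase (gene 20135, chromosome 12, 24708254 to 24714146), was at 6.29 to 7.05 in thymus (median 6.79), 6.66 to 7.63 in WT T-ALL (median 7.19) and 7.50, 7.91 and 8.21 in Notch3 KO T-ALL. WT T-ALL overlapped both other groups, and the differences from thymus were 0.44 (SE 0.15, adjusted p = 0.0187) and 1.13 (SE 0.22, adjusted p = 0.000373). The call of Rrm2 in WT T-ALL was lost after quantile normalization (difference 0.17, adjusted p = 0.413), after the GC and length correction (0.20, adjusted p = 0.356), within set A (0.65, adjusted p = 0.163), within set B (0.34, adjusted p = 0.118) and without thymus control 6 (0.35, adjusted p = 0.0707). Mean scaled RPKM of Rrm1 and Rrm2 was 85.5 and 108 in thymus, 189 and 147 in WT T-ALL and 199 and 238 in Notch3 KO T-ALL, so Rrm2 was the higher of the pair in thymus and Notch3 KO T-ALL and the lower in WT T-ALL.

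Fork protection genes, which hold the helicase and polymerases together and signal stalled forks, rose in 3 of 3 cases. Tipin, the partner of Timeless, was at 5.39 to 5.88 in thymus (median 5.71), 6.18 to 7.82 in WT T-ALL (median 6.81) and 6.96, 6.55 and 7.35 in Notch3 KO T-ALL. Neither T-ALL group overlapped with thymus, and the differences were 1.16 (SE 0.18, adjusted p = 1.35e-05) and 1.27 (SE 0.26, adjusted p = 0.000594). Timeless itself rose by 0.94 and 1.14. Clspn, which codes for the checkpoint adaptor claspin (gene 269582, chromosome 4, 126556957 to 126594533), was at 3.73 to 4.33 in thymus (median 4.12), 4.06 to 5.38 in WT T-ALL (median 4.82) and 4.89, 5.64 and 5.50 in Notch3 KO T-ALL. The Notch3 KO samples lay above all controls, and the lowest WT T-ALL lay inside the control range. The differences were 0.69 (SE 0.17, adjusted p = 0.00165) and 1.26 (SE 0.24, adjusted p = 0.000327), and within set B the call in WT T-ALL was lost (0.47, adjusted p = 0.0592).

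**Figure D3:**
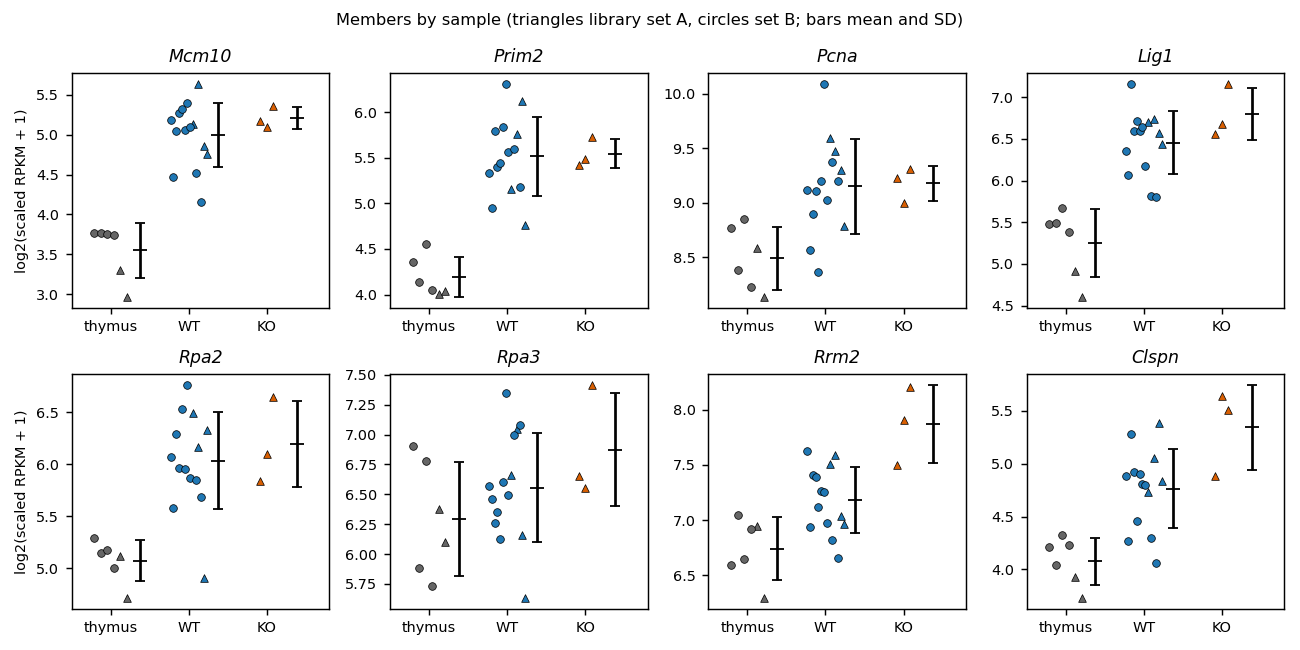
Log2(scaled RPKM + 1) of single replication genes by sample and group; triangles are library set A, circles set B, and bars the mean and SD. Mcm10 separates T-ALL (4.16 or more) from thymus (3.77 or less), whereas Rpa3 overlaps between all groups.

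Notch3 KO T-ALL was compared with the same 6 thymus controls, so that the comparison is not independent of the one for WT T-ALL. In it, 39 of the 42 members rose and none fell, where 21.2% of all genes rose and 16.3% fell (37.5% called in all). The median difference was 1.13 for the members and 0.08 for all genes tested, and 30 members were at least 2-fold higher in mean scaled RPKM. The 3 samples lay above every control in 39 members, against 23.9% of all genes. Not called were Rfc1, Rpa1 and Rpa3. Quantile normalization left 38 members called, with 2061 genes higher and 2401 lower in all, against 2527 and 1948 in the values as deposited, and the GC and length correction left 34, with 2012 higher and 2573 lower. Set A holds all 3 Notch3 KO T-ALL and 2 of the controls, which are the close pair 5 and 6 and may not be independent. Within set A, 33 members were called (25.1% of all genes), and 32 were called for WT T-ALL (15.2%). Without Notch3 KO T-ALL 3, 32 of the members were called, and 32 kept their call whichever 1 library was left out. Within set B, 36 members were called for WT T-ALL (42.7% of all genes), and with the set as a term in the fit the counts were 40 for WT and 36 for Notch3 KO T-ALL.

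**Figure D4:**
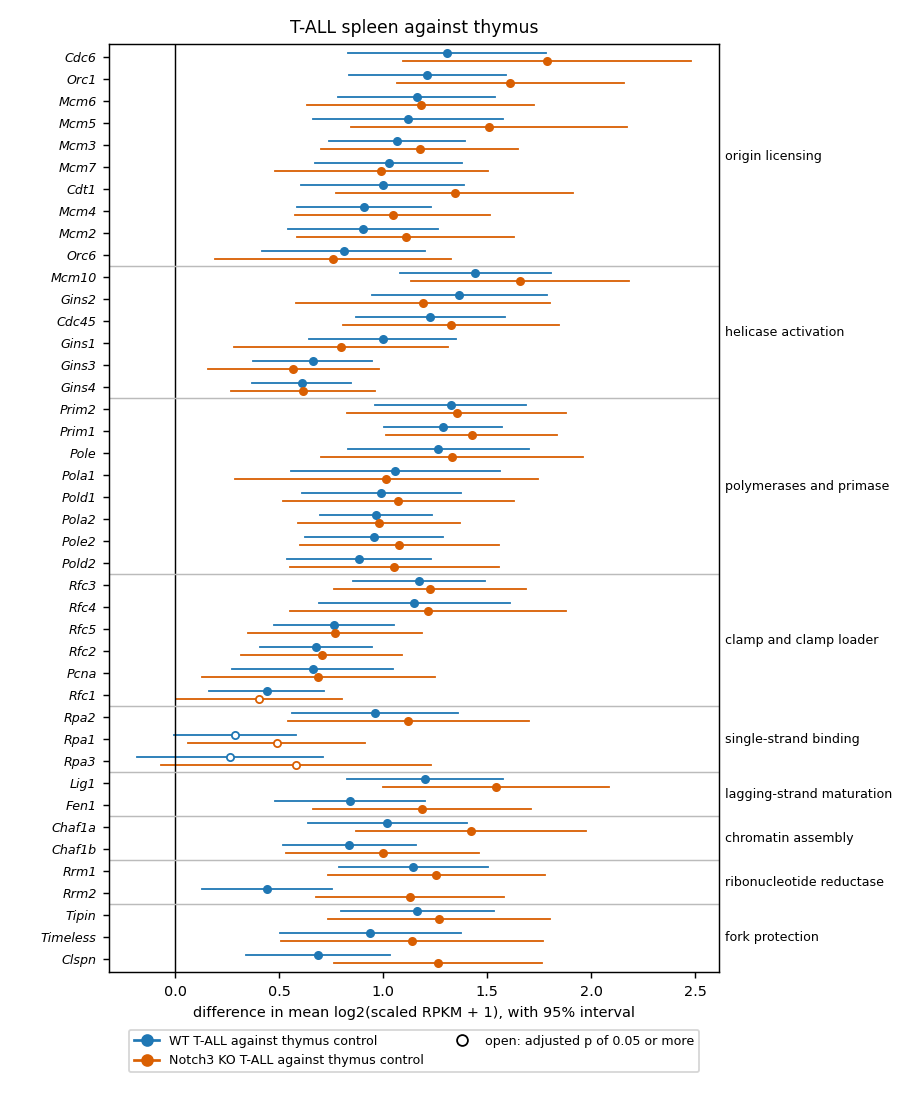
Differences in mean log2(scaled RPKM + 1) between T-ALL and thymus control for the 42 replication genes by role, with 95% intervals, for WT T-ALL (n = 14) and Notch3 KO T-ALL (n = 3) against the same 6 controls. All differences lie above 0, from 0.26 (Rpa3) to 1.44 (Mcm10) in WT T-ALL and from 0.40 (Rfc1) to 1.79 (Cdc6) in Notch3 KO T-ALL.

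The comparison of both T-ALL groups asked whether the machinery differed when the donor thymus lacked Notch3. No member was called, where 0.617% of the 11677 genes tested were called by limma (0.591% higher and 0.0257% lower in Notch3 KO T-ALL), and 2 members had an unadjusted p under 0.05 (8.51% of all genes). The members' differences, Notch3 KO minus WT, ran from -0.20 to 0.69 with a median of 0.11, and 35 of 42 were above 0. These values rested on single libraries, as 22 of 42 were above 0 with a median of 0.01 without Notch3 KO T-ALL 3, and 38 of 42 without Notch3 KO T-ALL 2 (median 0.21) or without WT T-ALL 14 (median 0.17). After quantile normalization 28 were above 0 with a median of 0.06. In 39 of the 42 the 95% interval lay within a difference of 1 in either direction, and the intervals together spanned -0.72 to 1.16. In no member did the groups lie apart, which held in the upward direction for 0.325% of all genes. With 3 Notch3 KO samples, differences smaller than these intervals could not be resolved. Rrm2 had the largest difference, 0.69 (SE 0.21, 95% interval 0.26 to 1.12, p = 0.0033, adjusted p = 0.15), a 1.62-fold ratio of mean scaled RPKM. Its Notch3 KO values of 7.50, 7.91 and 8.21 reached from inside to above the WT T-ALL range, which ended at 7.63. Clspn followed with 0.58 (95% interval 0.08 to 1.08, p = 0.0247, adjusted p = 0.419), and Cdc6 and Chaf1a with 0.48 and 0.40 (adjusted p = 0.843 and 0.828). Erythroid genes were also higher in Notch3 KO T-ALL, with 12 of 12 differences above 0 and a median of 2.19. The same held for 7 of 7 macrophage markers (median 1.45) and 5 of 5 megakaryocyte markers (median 1.81), while 0 of 8 neutrophil markers lay above 0. None of these markers was called, with 10, 4, 5 and 0 at an unadjusted p under 0.05. All 3 Notch3 KO T-ALL belonged to library set A, and within that set no member was called.

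**Figure D5:**
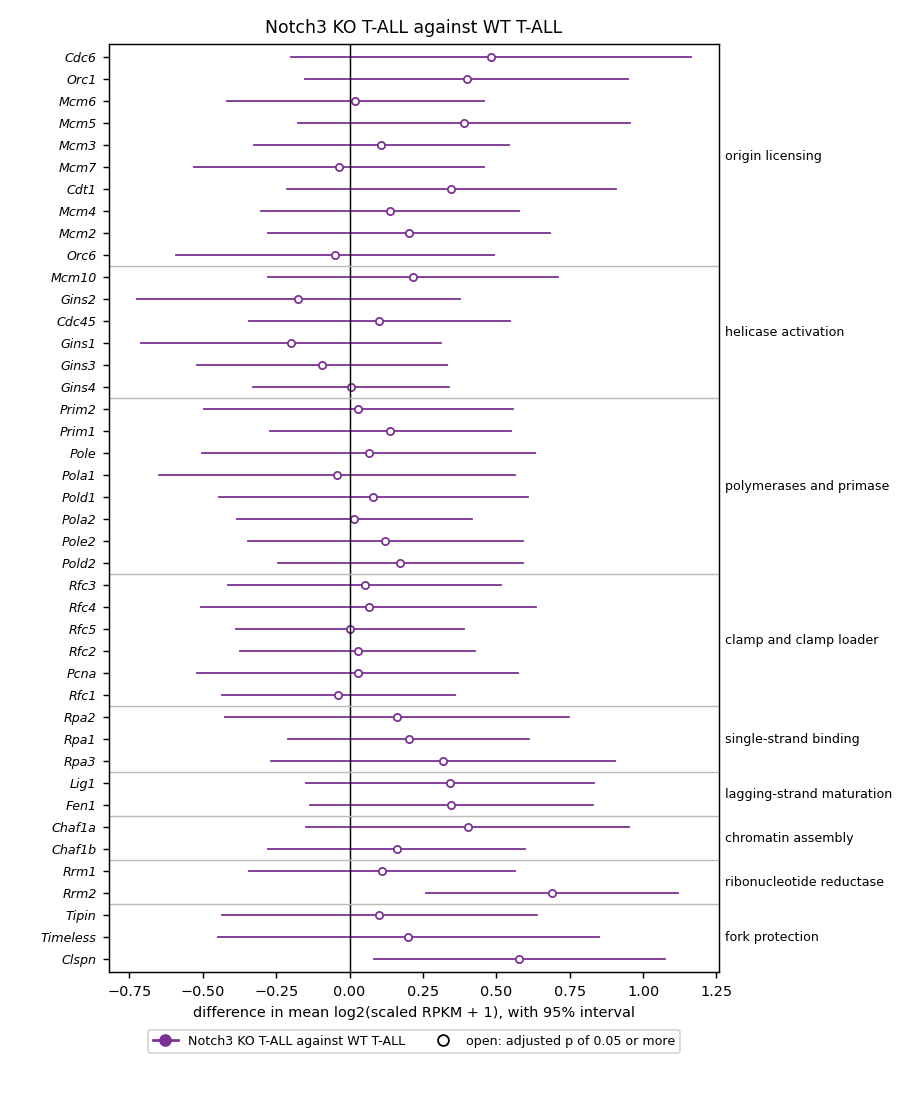
Differences in mean log2(scaled RPKM + 1) between Notch3 KO T-ALL (n = 3) and WT T-ALL (n = 14) for the 42 replication genes by role, with 95% intervals. Most points lie between -0.20 and 0.48, and the intervals of Rrm2 and Clspn alone leave out 0.

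Among the WT T-ALL, most members varied together from mouse to mouse. The Pearson r of each member with the mean of the other 41 over the 14 samples ran from 0.29 for Rfc1 to 0.92 for Mcm6, with a median of 0.72, and it was above 0.5 for 34 members. The samples share a normalization, and these values are descriptions without a test. The SD among WT T-ALL had a median of 0.38 over the members. The mean of the members followed that of the 19 mitotic genes (r = 0.75, Spearman 0.81, 0.71 without the 2 samples farthest from the median, and 0.81 within the 10 samples of set B). Over all genes tested, those whose pattern was most like the mean of the members included Wdr18 and Kif20a (both r = 0.90), Rpap3 (0.88) and U2af1 (0.87), each over the same 14 samples. Of these, Kif20a codes for a mitotic kinesin.

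Further genes of the pathway that are no members rose in most cases. Of 57 tested in 7 lists, 35 rose and 3 fell in WT T-ALL, and 31 rose and 2 fell in Notch3 KO T-ALL, with median differences of 0.63 and 0.70. Over all genes, 29.3% rose and 22.3% fell in WT T-ALL and 21.2% and 16.3% in Notch3 KO T-ALL, and the small lists below are to be read beside these shares. Of the kinases and adaptors that fire origins, 9 of 12 rose in WT T-ALL, among them Recql4 (1.44) and Ticrr (1.00). Of 12 alternative clamp loaders and fork factors 9 rose, such as Dscc1 (1.41) and Wdhd1 (1.40). Licensing inhibitor Gmnn rose by 0.93 together with Mcm8 (0.97), so that 4 of the 8 further licensing genes rose. Chromatin factors at the fork rose in 4 of 5 cases, with Hells at 1.05 and Uhrf1 at 0.77. Checkpoint genes rose in 4 of 9 and fell in 1, with Chek1, the kinase downstream of claspin, at 1.18. Of 4 other polymerase subunits, Pole3 (1.09) and Pold3 (0.39) rose. Nucleotide supply was split, since 3 of 7 rose and 2 fell. Tk1, the thymidine kinase of S phase, rose by 1.48 and Dut, which removes dUTP, by 1.45, while the salvage kinase Dck fell by 1.20 and the dNTP hydrolase Samhd1 by 1.09.

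Of 13 regulators of the E2F pathway, 4 rose and 4 fell in WT T-ALL, beside 29.3% and 22.3% of all genes. E2f1, an activator of S phase genes, was at 3.14 to 3.54 in thymus (median 3.30), 3.63 to 5.11 in WT T-ALL (median 4.32) and 4.53 to 4.80 in Notch3 KO T-ALL on the log2 scale. It rose by 1.05 in WT T-ALL (SE 0.19, adjusted p = 9.6e-05) and by 1.34 in Notch3 KO T-ALL, with no overlap with thymus. E2f2 fell by 1.32 in WT T-ALL and Rbl2, the pocket protein p130 that holds E2F genes down in resting cells, by 1.52, both without overlap. In Notch3 KO T-ALL the difference of E2f2 from thymus was -0.20 (adjusted p = 0.64), and its difference between the T-ALL groups, 1.11, was not called (adjusted p = 0.115). Of 6 Cdk inhibitors, 1 rose and 2 fell in WT T-ALL, with differences of 3.07 for Cdkn2a, -1.57 for Cdkn1b and -1.39 for Cdkn2d. The mitotic genes rose in 17 of 19 cases in WT T-ALL, with a median difference of 0.75, and in 15 of 19 in Notch3 KO T-ALL, with 1.04. None of the genes in these lists was called between the T-ALL groups.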

How the data were processed

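Stranded mRNA libraries were read as 100 bp paired ends. In the study's methods, the authors used OSA in ArrayStudio to map reads to transcripts of mm10, and expression was quantified in the same software. The deposited table holds log2 values. Their minimum of 0 and 75th percentile of 3.458 to 3.459 in the 23 samples are those of log2(RPKM + 1) with RPKM scaled to a 75th percentile of about 10. No counts are given, so the depth of single libraries is unknown and no interval for counting error is given.

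A gene entered a fit when 3 or more of its samples had a scaled RPKM of 1 or more. It was tested by limma 3.58.1 (R 4.3.3, eBayes with the options trend and robust), with Benjamini-Hochberg adjustment over all genes and a threshold of 0.05. For the comparisons with thymus the 3 groups shared 1 fit, and the T-ALL groups were compared without thymus. Fits were checked on simulated data. GC content and length came from GENCODE M21 for 96.7% of the genes tested, and promoters from RefSeq on GRCm38.p6. Motifs were matched as exact letters on both strands, and overlapping matches were counted. The members and gene lists were chosen with earlier results of these data known. Members were named in each role by the largest and the smallest difference between WT T-ALL and thymus, with Pcna, Mcm2, the 4 members with the largest difference between the T-ALL groups and Orc1, which had the lowest level in thymus and WT T-ALL. Orc1, Mcm5 and Mcm6 were shown as sequences after their matches had been seen, and genes of the other lists were named after their values had been seen. A gene among those most like the mean of the members is not reported here. Alternatives covered offset, filter, normalization, samples fitted, library sets, averaged controls, GC and length, erythroid level, replicate block and leaving out each library.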

Additional observations from a re-analysis of the deposited data

Results flagged for a closer look

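The lowest of the 6 thymus controls stood apart from the other 5 by Dixon's criterion in 2 of the 43 measures tested, the 42 members and their mean. Chance flags about 1 in 20 of such tests. Orc1 was 2.05 on the log2 scale in control 6 and 2.38 to 2.57 in the other controls. Cdc45 was 3.37 in control 6 and 4.18 to 4.55 in the others. Control 6 also had the lowest mean of the members (4.40) and of the mitotic genes (4.61) among the controls. Leaving it out took away the calls of Rrm2 in WT T-ALL and of Orc6, Pola1 and Pcna in Notch3 KO T-ALL against thymus.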

How the results depend on the processing

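Of the counts of members called, 105 of the alternative values were within 1.5 times the reported count and 2 were not. With the erythroid level as a covariate, 10 members were called in WT T-ALL and 0 in Notch3 KO T-ALL against thymus, with median differences of 0.85 and 0.97 against 0.99 and 1.13 as reported. That level does not overlap between thymus and T-ALL, so the covariate and the group largely carry the same information. Leaving out 1 library gave 39 to 40 members for WT T-ALL, 32 to 40 for Notch3 KO T-ALL and 0 to 0 between the T-ALL groups. Averaging the close pairs of controls gave 37 to 40 and 34 to 36 members. GC and length correction and quantile normalization lowered the median difference of all genes in Notch3 KO T-ALL from 0.08 to -0.06 and -0.05.

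Replicate numbers shared between groups did not pair the samples, since deviations of same-numbered samples correlated with r from -0.235 to 0.151. With the replicate number as a block (4 residual degrees of freedom), 35 members were called in WT T-ALL, 36 in Notch3 KO T-ALL and 0 between them, where 19 of the 42 differences lay above 0 with a median of -0.029.

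For the 18 members named by rule, 1462 alternative values kept direction and call, 90 lost the call, 1 gained it and 13 changed sign. Rpa3 became -0.27 in WT T-ALL after GC and length correction, and -0.55 in WT and -0.63 in Notch3 KO T-ALL with the erythroid covariate. Between the T-ALL groups, under the block Chaf1a became -0.014, Mcm2 -0.11 and Pcna -0.36. Pcna was also -0.11 with the library set as a term and within set A, -0.088 after quantile normalization, and -0.017, -0.033 and -0.00079 without WT T-ALL 110, 126 and 7, and it ran from -0.040 (without Notch3 KO T-ALL 3) to 0.12 (without Notch3 KO T-ALL 2) when 1 library was left out. The GC and length correction cut 6 of the 40 called differences in WT T-ALL and 6 of 39 in Notch3 KO T-ALL by over 1.5 times (3 and 5 of these calls were lost, in Notch3 KO T-ALL those of Gins1, Gins3, Gins4, Orc6 and Pcna), and quantile normalization cut 2 (Pcna and Rrm2) and 1 (Pcna), all of them lost. The causes were not tested. Over all alternatives, these scalings included, the calls of Pcna and Orc6 in Notch3 KO T-ALL (25 and 12 alternatives) and of Rrm2, Pcna and Rfc1 in WT T-ALL (8, 6 and 5) were lost most often among the named members. The library sets, the averaged controls, GC and length and the 7-letter motif were chosen after seeing the data. Over all genes, the number called between the T-ALL groups ran from 1 to 254 with the setting, and no member was among them in any setting.

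Without counts, the precision of low members such as Orc1 is unknown, and 3 Notch3 KO T-ALL leave intervals that reach up to 1.16 on the log2 scale.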

Other observations

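The deviations of the members from their group means followed transcript length and GC content in some libraries. Over the 42 members, r with log2 transcript length was highest in thymus control 4 (0.62), WT T-ALL 120 (0.56) and control 2 (0.52). It was lowest in WT T-ALL 48 (-0.59), WT T-ALL 36 (-0.43) and thymus control 1 (-0.39). With GC content, r was highest in WT T-ALL 111 (0.61), WT T-ALL 126 (0.61) and control 2 (0.57). It was lowest in WT T-ALL 36 (-0.69), WT T-ALL 48 (-0.64) and WT T-ALL 14 (-0.50). Genes of a library share its preparation and are not independent, and no test was made. The difference between WT T-ALL and thymus had r = 0.26 with log2 length and 0.12 with GC content over the same members.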
